A study of Homo sapiens with 4 samples.

Results

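The NOTCH genes described here are 10 rows of the deposited gene tables, chosen by symbol as the ligands DLL1, DLL3, DLL4, JAG1 and JAG2, the receptors NOTCH1, NOTCH2 and NOTCH3, and the targets HES1 and HEY1. They are 10 of 26364 genes in the tables. Messenger RNA was sequenced in NTERA2, a human embryonal carcinoma line, and the labels give a single clone name, CRL-1973, for all libraries. The group labelled BEND3 sh60 holds replicates 1 and 2, and the group labelled BEND3 LacZ holds replicates 1 and 3. The BEND3 protein is known as a repressor that works on chromatin through its BEN domains. The name sh60 is read here as a short hairpin RNA against BEND3 and LacZ as its control, a reading that the labels leave unstated. All libraries share one culture medium, high-glucose DMEM with serum, and no other allele or agent is named. Neither the time of harvest nor the way the hairpin was delivered was given in the sources used here.

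NOTCH signalling passes between touching cells. A ligand of the Delta-like or Jagged family on the sending cell pulls on a NOTCH receptor of its neighbour, proteases of the ADAM family and then the gamma-secretase complex cut the receptor, and the freed intracellular part joins the DNA-binding protein RBPJ to switch on target genes, among them repressors of the HES and HEY families. In the embryo the pathway sets the rhythm of somite formation in presomitic mesoderm and keeps neural progenitors from differentiating all at once. DLL3 differs from the other Delta-like ligands in that it does not activate receptors on neighbouring cells and is known as an inhibitor of the pathway within the cell that makes it.

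The RBPJ recognition letters can be read directly in the promoters of some HES and HEY genes. Promoter windows of 300 bases, 250 before and 50 after the gene's start, were taken from RefSeq on GRCh38.p14. Windows existed for 7 of the 10 members and 12 of 12 other genes (11 further HES, HEY and related genes and NRARP). DLL1, DLL3 and HEY1 had no window and were not searched. The core TGGGAA, searched on both strands, was present in 24.0% of 35116 windows of all genes. It was present in 1 of the 7 member windows and in 7 of the 12 other windows. Apart from NRARP, the 12 were listed by family, not as proven NOTCH targets. The longer GTGGGAA, which contains the core, was present in 6.25% of all windows, in that same member window, HES1, and in 4 of the 12. The windows of HES1 (chr3:194135898-194136197, plus strand), HES4 (chr1:1000048-1000347, minus strand) and HEY2 (chr6:125749382-125749681, plus strand) are shown because all hold the longer motif while the tests of their mRNA levels, given below, came out differently. Capitals mark the core on either strand.
HES1: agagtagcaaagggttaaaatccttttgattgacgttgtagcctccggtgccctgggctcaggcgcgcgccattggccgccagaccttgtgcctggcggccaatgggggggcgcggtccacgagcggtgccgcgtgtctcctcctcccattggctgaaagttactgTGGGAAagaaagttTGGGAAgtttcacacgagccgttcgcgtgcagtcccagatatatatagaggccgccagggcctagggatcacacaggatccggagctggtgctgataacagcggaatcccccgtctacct
HES4: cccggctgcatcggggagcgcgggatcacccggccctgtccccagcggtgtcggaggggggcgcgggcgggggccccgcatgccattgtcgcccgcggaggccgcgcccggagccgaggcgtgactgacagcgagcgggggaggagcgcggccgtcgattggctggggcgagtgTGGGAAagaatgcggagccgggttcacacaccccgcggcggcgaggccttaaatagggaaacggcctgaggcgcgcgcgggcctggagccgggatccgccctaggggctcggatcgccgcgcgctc
HEY2: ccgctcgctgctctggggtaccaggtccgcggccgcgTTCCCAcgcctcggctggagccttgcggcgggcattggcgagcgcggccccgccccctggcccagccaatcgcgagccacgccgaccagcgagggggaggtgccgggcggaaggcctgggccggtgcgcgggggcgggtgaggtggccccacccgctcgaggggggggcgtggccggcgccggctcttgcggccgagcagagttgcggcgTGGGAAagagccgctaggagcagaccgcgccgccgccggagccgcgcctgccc
In HES1 the core began 84 and 70 bases before the start, in HES4 76 bases before it, and in HEY2 213 bases before it on the opposite strand and again 3 bases before it. The T-box letters AGGTGT, on either strand, were present in 1 member window, that of JAG2, and in 11.4% of all windows. Whether DLL1, DLL3 or HEY1 hold them was not examined, as these had no window. A match of letters is a description of the window and does not show that a factor binds there.

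The libraries held 33798665 and 44788461 counts in sh60 and 42538561 and 30338285 counts in LacZ. Levels are given as CPM, a count relative to its library's total after TMM scaling, and 1 count was worth 0.0221 to 0.0333 CPM. BEND3 itself measured 55.7 and 52.0 CPM in sh60 replicates 1 and 2, against 68.8 and 79.3 CPM in LacZ replicates 1 and 3 (log2 fold change -0.46, SE 0.098, edgeR adjusted p = 0.00168), and this call was lost without LacZ replicate 3 (adjusted p = 0.154). Markers of embryonal carcinoma cells were high, with summed levels of 4492 and 4294 CPM in sh60 and 4592 and 4838 CPM in LacZ over 8 genes. Of these 8 genes 1 rose, SOX2 (log2 fold change 0.31), and 3 fell, DNMT3B (-0.72), TDGF1 (-0.49) and NANOG (-0.25), while POU5F1, which encodes OCT4, did not pass (0.03). Of all tested genes 15.8% were called higher and 13.0% lower. The listed exon length of POU5F1 was 19454 bases, and its level carries the limit given for NOTCH4 below. The part of the embryonal carcinoma markers in the results for the NOTCH genes was not tested. The labels name the cells as a lung carcinoma, and 7 lung markers summed to 0.323 and 0.155 CPM in sh60 and to 0.594 and 0.433 CPM in LacZ. The lung genes SFTPB and SCGB1A1 were at 0 counts in all libraries. Whether the replicates were grown as separate cultures is not stated, and the p-values then measure only the spread between these libraries, which may be technical. The LacZ libraries also differed from each other along the contrast: LacZ replicate 1 lay on the sh60 side of LacZ replicate 3 in 60.6% of all tested genes, 75.5% of those called higher, 66.2% of those called lower and 5 of the 9 tested members. In bulk RNA, fewer cells expressing a gene and less of its RNA per cell cannot be told apart.

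Among the members, the Delta-like ligands DLL1 and DLL3 and the target HEY1 fell in sh60, the ligand JAG1 and the receptor NOTCH2 rose, and JAG2, NOTCH1, NOTCH3 and HES1 did not pass the test. DLL3 had the largest change, to 0.37 of its LacZ level, while JAG1 and NOTCH2 rose by 1.22-fold and 1.34-fold. DLL4 was near silent and was not tested. Of the 9 tested members 2 were called higher and 3 lower at an adjusted p under 0.05 (edgeR's quasi-likelihood test with Benjamini-Hochberg adjustment over 16040 genes). The background was 15.8% of all tested genes called higher and 13.0% called lower, 28.8% in all. The 9 tested members had a median log2 fold change of -0.12, against -0.0042 over all genes tested. In 8 of the 9 the sh60 libraries lay wholly above or wholly below the LacZ libraries, 4 higher and 4 lower, beside 32.1% and 32.3% of all tested genes (64.4% in all).

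**Figure D1:**
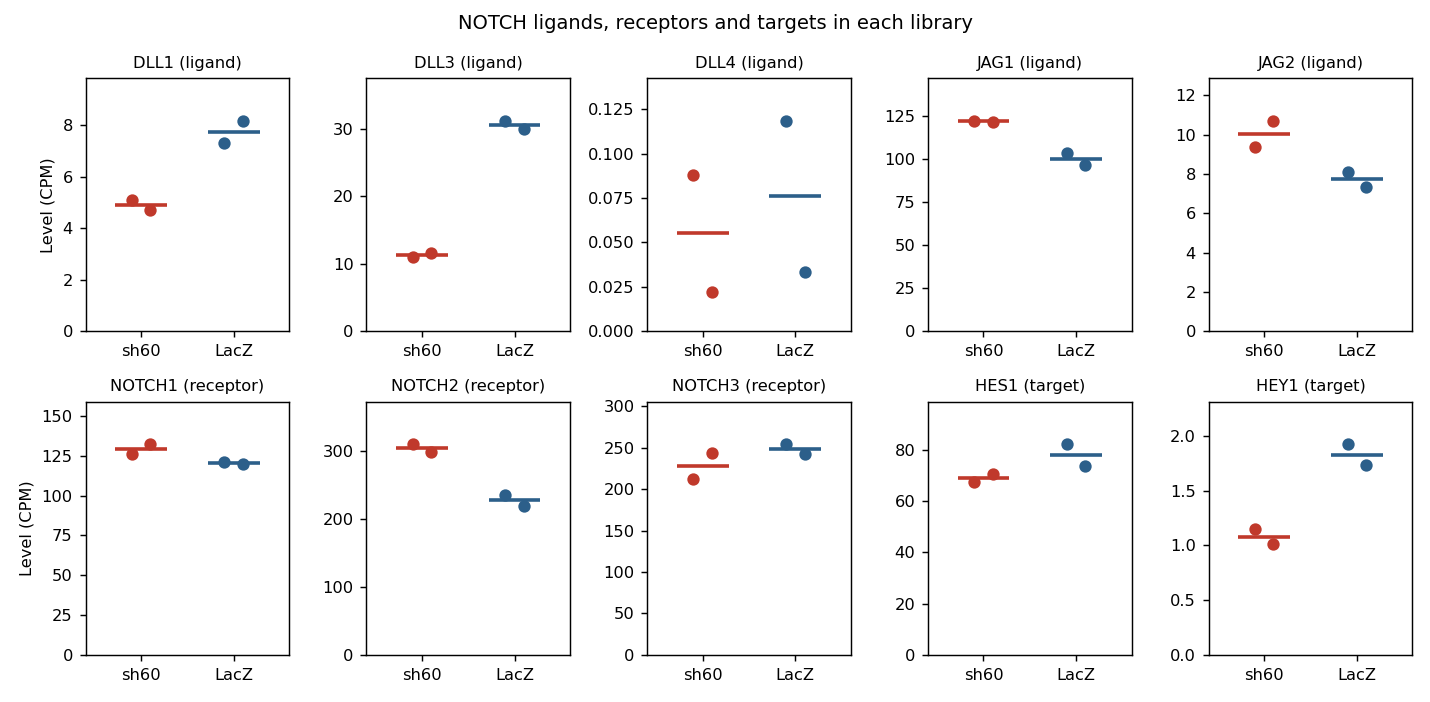
Level of each of the 10 genes in CPM (vertical axis, starting at 0, own scale per panel) in the 2 sh60 and 2 LacZ libraries. Points are libraries and lines are group means. DLL1, DLL3 and HEY1 sit lower in sh60, JAG1 and NOTCH2 sit higher, and DLL4 stays below 0.12 CPM.

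The ligands were led by JAG1, which encodes Jagged1, a ligand with a long extracellular part. JAG1 (chromosome 20, 10618332 to 10654694, hg19, minus strand) measured 122.5 and 121.9 CPM in sh60 replicates 1 and 2, against 103.4 and 96.7 CPM in LacZ replicates 1 and 3. Both sh60 libraries lay above both LacZ libraries, and the sh60 pair differed by less than the LacZ pair. The group means were 122.2 ± 0.416 CPM in sh60 and 100 ± 4.70 CPM in LacZ (SD, n = 2 each), a log2 fold change of 0.29 (SE 0.085, edgeR adjusted p = 0.0163). The call was lost without LacZ replicate 1 (0.34, adjusted p = 0.145) and without LacZ replicate 3 (0.24, adjusted p = 0.388).

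DLL3 (chromosome 19, 39989557 to 39999121, plus strand) measured 11.04 and 11.6 CPM in sh60, against 31.2 and 30.0 CPM in LacZ. The libraries of each group were close together and the groups were far apart. The means were 11.3 ± 0.379 CPM in sh60 and 30.6 ± 0.835 CPM in LacZ (SD, n = 2 each), with a log2 fold change of -1.44 (SE 0.11, 95% confidence interval -1.67 to -1.20, edgeR adjusted p = 6.27e-08). Over 12 alternative settings the log2 fold change stayed between -1.47 and -1.38, and the adjusted p ran from 3.85e-29 to 3.23e-06.

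DLL1, the activating Delta-like ligand of presomitic mesoderm and neural progenitors, lies at chromosome 6, 170591294 to 170599697 (minus strand). It measured 5.11 and 4.71 CPM in sh60, against 7.31 and 8.18 CPM in LacZ, on 174 to 308 counts per library. The groups did not overlap, and the log2 fold change was -0.66 (SE 0.15, edgeR adjusted p = 0.00341). The call held under all 12 alternatives, with an adjusted p of 0.000314 to 0.0303.

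JAG2, the second Jagged ligand (chromosome 14, 105607318 to 105635161, minus strand), measured 9.37 and 10.7 CPM in sh60, against 8.12 and 7.35 CPM in LacZ. Both sh60 libraries were the higher ones, and the log2 fold change of 0.38 (SE 0.14, edgeR adjusted p = 0.0511) did not pass. It passed in 4 of 12 alternatives, namely library totals only (adjusted p = 0.0361), no count filter (0.0360), GC and length trends removed (0.00798) and without sh60 replicate 1 (0.0226). DLL4, a ligand known from endothelium (chromosome 15, 41221531 to 41231258, plus strand), had 3 and 1 counts in sh60, against 5 and 1 counts in LacZ, too few for the test or for a fold change.

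Compared per length of exon, the make-up of the ligand mRNA differed between the groups. On the scale of CPM per kilobase, the 5 ligands summed to 28.3 and 28.5 in sh60, against 34 and 32.5 in LacZ. JAG1 made up 72.4% and 71.5% of that sum in sh60, against 50.8% and 49.7% in LacZ. DLL3 made up 16.4% and 17.1% in sh60, against 38.5% and 38.8% in LacZ. Each library of a group thus had nearly the same make-up as its partner. The log2 ratio of JAG1 to DLL3 was 2.14 and 2.07 in sh60, against 0.40 and 0.36 in LacZ. With 2 libraries a group, an exact permutation test of such a ratio cannot pass 0.05, so the shares and ratios are given as values with no test.

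**Figure D2:**
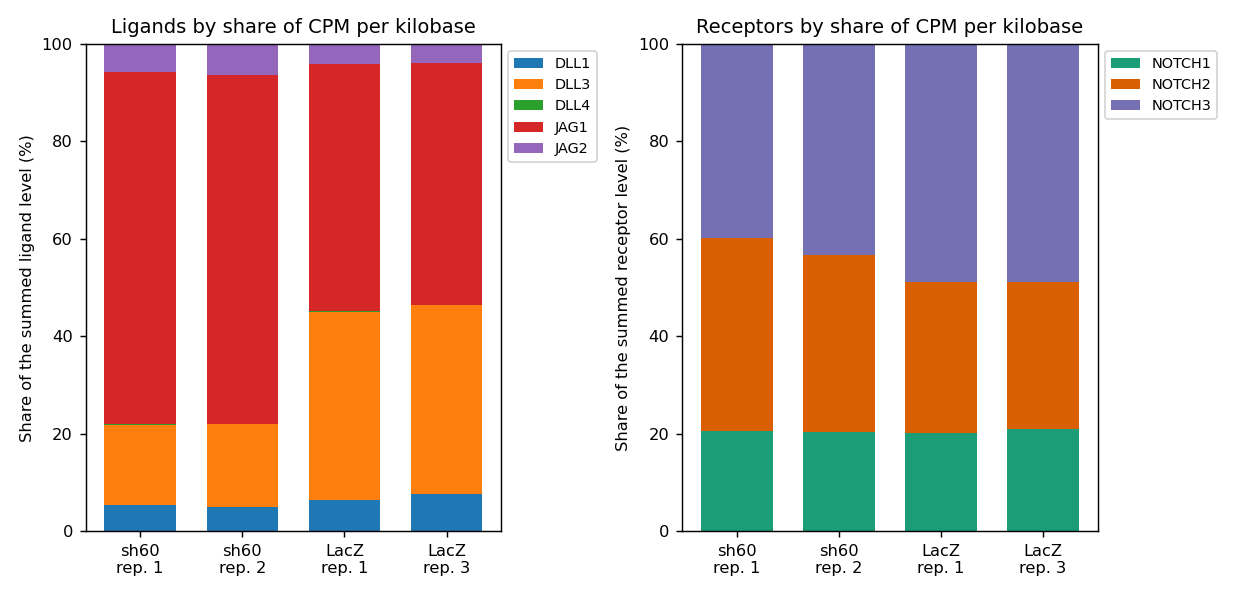
Share of each ligand (left) and receptor (right) in the summed level, in percent of CPM per kilobase, for the 2 sh60 and 2 LacZ libraries. JAG1 takes 71.5% to 72.4% of the ligand sum in sh60 and 49.7% to 50.8% in LacZ, with DLL3 making up most of the difference.

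Of the receptors, NOTCH2 rose and the others did not pass. NOTCH2 (chromosome 1, 120454176 to 120612317, minus strand) measured 310.1 and 298.9 CPM in sh60, against 236.0 and 219.7 CPM in LacZ. The gap between the groups was larger than either pair's own spread, with means of 304.5 ± 7.91 CPM in sh60 and 227.9 ± 11.6 CPM in LacZ (SD, n = 2 each). The log2 fold change was 0.42 (SE 0.080, edgeR adjusted p = 0.000704), and without LacZ replicate 3 it was 0.37 and did not pass (adjusted p = 0.0912). NOTCH2NL, a partial copy of NOTCH2 that can share its reads, measured 8.22 and 9.04 CPM in sh60, against 7.41 and 6.49 CPM in LacZ, and did not pass (adjusted p = 0.119). Reads that fit both copies were left out under the counting defaults, so both levels are uncertain.

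NOTCH1 (chromosome 9, 139388896 to 139440238, minus strand) measured 126.2 and 132.3 CPM in sh60, against 121.0 and 119.9 CPM in LacZ. The sh60 libraries were the higher ones by a small margin, and the log2 fold change was 0.10 (95% confidence interval -0.07 to 0.28, edgeR adjusted p = 0.396). It passed only with GC and length trends removed (0.14, adjusted p = 0.0381) among the 12 alternatives. NOTCH3 (chromosome 19, 15270444 to 15311792, minus strand) measured 212.0 and 243.3 CPM in sh60, against 254.3 and 242.0 CPM in LacZ. Its groups overlapped, and the log2 fold change was -0.12 (95% confidence interval -0.30 to 0.06, edgeR adjusted p = 0.311). Without sh60 replicate 2, the library nearer to LacZ, it was -0.23 and passed (adjusted p = 0.00733).

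The 3 receptors together summed to 66.1 and 69.7 CPM per kilobase in sh60, against 64.5 and 61.5 in LacZ. NOTCH2 made up 39.7% and 36.3% of that sum in sh60, against 30.9% and 30.2% in LacZ. NOTCH3 made up 39.8% and 43.3% in sh60, against 48.9% and 48.8% in LacZ, while the share of NOTCH1 lay between 20.2% and 21.0% in all 4 libraries. In LacZ the measured level of NOTCH3 therefore stood above that of NOTCH2 (30.0 to 31.5 against 18.6 to 20.0 CPM per kilobase). In sh60 the ranges nearly met (26.3 to 30.1 against 25.3 to 26.2). As reads shared with NOTCH2NL were left out, the level of NOTCH2 in these sums, shares and ranges is uncertain.

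HES1, the repressor most often used as a readout of NOTCH activity, had the highest level of the 10 genes per kilobase in both groups. HES1 (chromosome 3, 193853931 to 193856401, plus strand) measured 67.4 and 70.7 CPM in sh60, against 82.1 and 73.5 CPM in LacZ. Both sh60 libraries were below both LacZ libraries, and the gap to the nearer LacZ library was smaller than the spread of the LacZ pair. The log2 fold change was -0.17 (95% confidence interval -0.37 to 0.02, edgeR adjusted p = 0.185). Over the 12 alternatives it ran from -0.25 to -0.08 and passed only with GC and length trends removed (-0.18, adjusted p = 0.0430).

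HEY1, a HES-related repressor (chromosome 8, 80676245 to 80680098, minus strand), rested on 39 to 81 counts per library. It measured 1.14 and 1.02 CPM in sh60, against 1.92 and 1.73 CPM in LacZ, and the groups did not overlap. The log2 fold change was -0.77 (SE 0.25, edgeR adjusted p = 0.0293). The call was lost in 5 of 12 alternatives, which were DESeq2 (adjusted p = 0.157) and each fit without 1 library (adjusted p from 0.0509 to 0.168).

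**Figure D3:**
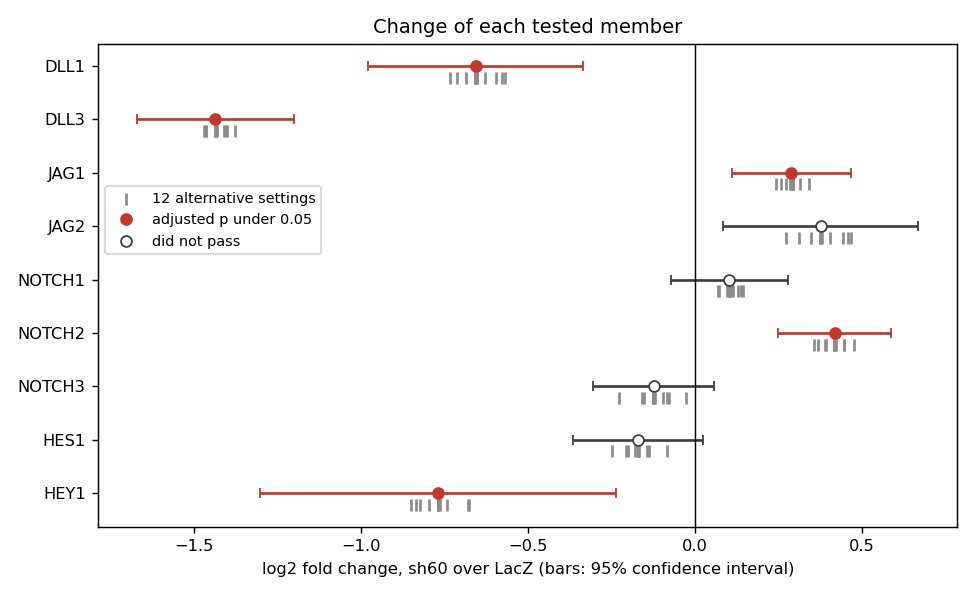
Log2 fold change, sh60 over LacZ (horizontal axis), of the 9 tested members with 95% confidence intervals. Filled red points passed an adjusted p of 0.05, open points did not, and grey ticks under each point are the 12 alternative settings. DLL3 lies at -1.44, apart from the other members, and no tick lies on the other side of 0 from its point.

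In the order of levels per kilobase, HES1 stood first in both groups, followed by NOTCH3, NOTCH2, JAG1 and NOTCH1. The place of NOTCH2 carries the limit given above for reads shared with NOTCH2NL. In LacZ, NOTCH1 and DLL3 came next to each other and did not differ beyond their spread (12.9 to 13.02 against 12.6 to 13.1 CPM per kilobase). In sh60 the same 2 genes were apart (13.6 to 14.2 against 4.63 to 4.86). JAG2 and DLL1 changed places, with JAG2 at 1.61 to 1.84 and DLL1 at 1.42 to 1.54 in sh60, and JAG2 at 1.26 to 1.39 and DLL1 at 2.21 to 2.47 in LacZ. HEY1 and DLL4 came last, in that order, in both groups.

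The genes whose levels over the 4 libraries were most like those of DLL3, by the Euclidean distance of centred log2 CPM, were PDE2A, SNAI1 and FAM222A (distances 0.0963, 0.111 and 0.117). PDE2A, a phosphodiesterase of cyclic nucleotides, measured 8.40 and 9.61 CPM in sh60, against 24.1 and 23.6 CPM in LacZ. SNAI1, a zinc finger repressor of epithelial genes, measured 14.9 and 17.4 CPM in sh60, against 45.02 and 42.0 CPM in LacZ. With 4 libraries in 2 groups, such likeness largely says that the groups differ by a like amount.

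Beyond the members, 95 other genes of the pathway or close to it were listed by role, and 84 of them were tested. Of these, 17 were called higher, 16 lower and 51 did not pass, with a median log2 fold change of 0.07. The shares were 20.2% higher and 19.0% lower, 39.3% in all, beside 15.8%, 13.0% and 28.8% of all tested genes, and the difference in share was not tested.

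**Figure D4:**
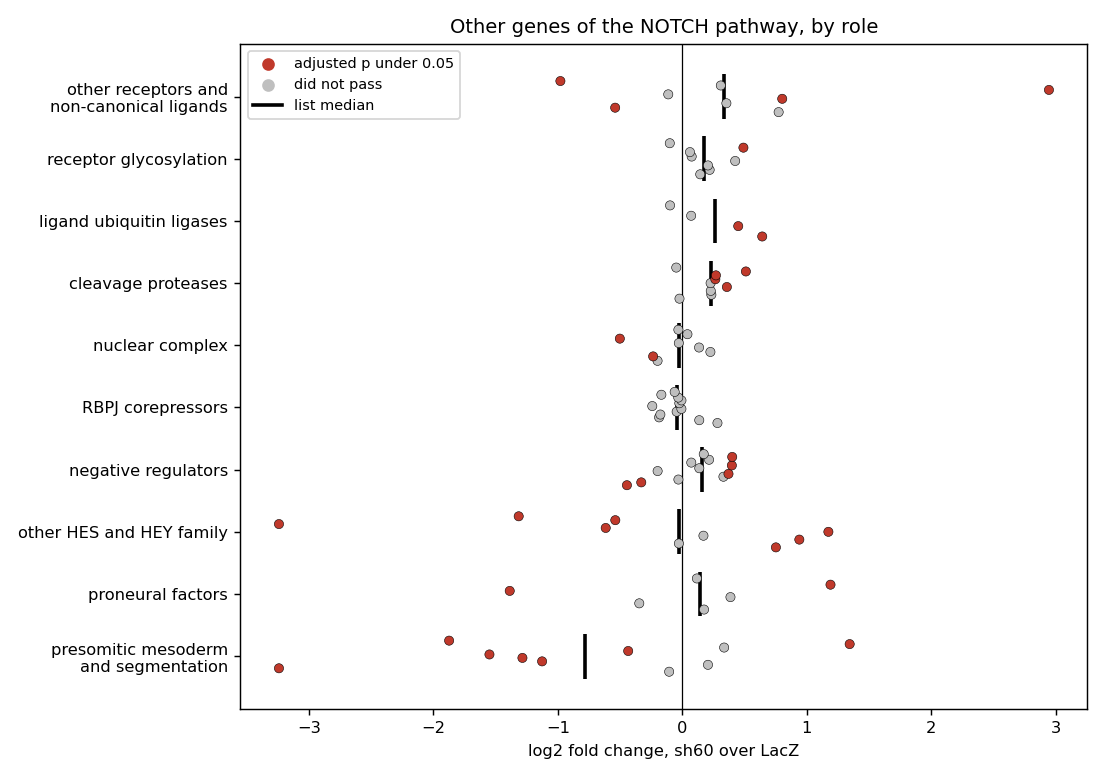
Log2 fold change, sh60 over LacZ (horizontal axis), of the tested genes in 10 lists of other NOTCH pathway genes. Each point is a gene, red where the adjusted p was under 0.05, and the bar is the list median. Cleavage proteases and ubiquitin ligases that passed lie above 0, and the presomitic list has its median at -0.78.

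Of the ubiquitin ligases and receptor proteases, those that passed were called higher. Over all tested genes 15.8% were called higher and 13.0% lower. Beside that, 0 lower on lists this short says little, and no list was tested as a set. Of 4 tested ubiquitin ligases that drive ligand uptake, 2 rose and 0 fell (median log2 fold change 0.26; at an unadjusted p under 0.05, by DESeq2 and by limma-voom also 0 fell). MIB1, the main ligase for ligand endocytosis, measured 82.5 and 66.5 CPM in sh60, against 50.4 and 44.9 CPM in LacZ (log2 fold change 0.64, edgeR adjusted p = 0.000231). Its relative MIB2 measured 31.6 and 39.1 CPM in sh60, against 26.7 and 25.1 CPM in LacZ (0.45, adjusted p = 0.00610), and did not pass without LacZ replicate 3 (adjusted p = 0.105).

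Of 9 receptor proteases 4 rose and 0 fell (median 0.23; at an unadjusted p under 0.05, 7 were higher and 0 lower, and DESeq2 and limma-voom each called 4 higher and 0 lower). All 4 are subunits of gamma-secretase, whose 6 listed genes otherwise held 2 that did not pass. The share over all tested genes was 15.8% higher and 13.0% lower. PSEN2, a catalytic subunit, measured 46.6 and 51.9 CPM in sh60, against 34.7 and 34.5 CPM in LacZ (log2 fold change 0.51, edgeR adjusted p = 0.000786). NCSTN, the substrate-binding subunit nicastrin, averaged 167.7 ± 4.84 CPM in sh60 and 139.4 ± 8.16 CPM in LacZ, and APH1B, a scaffold subunit, averaged 21.7 ± 1.18 CPM in sh60 and 16.9 ± 0.709 CPM in LacZ (SD, n = 2 each). These were small changes, and without LacZ replicate 1 or without LacZ replicate 3 only 1 protease, PSEN2, passed in each fit.

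Of 8 genes that add sugars to the receptor 1 rose and 0 fell (0 also at an unadjusted p under 0.05, by DESeq2 and by limma-voom). The share over all tested genes was 15.8% higher and 13.0% lower. The riser was RFNG, a fringe glycosyltransferase, with 10.2 and 14.3 CPM in sh60, against 9.28 and 8.18 CPM in LacZ (adjusted p = 0.0235). It did not pass without LacZ replicate 3 (adjusted p = 0.135) or without sh60 replicate 2 (0.312). LFNG, the fringe gene of the segmentation clock, did not pass (log2 fold change 0.21, edgeR adjusted p = 0.254), and was named after its value was seen, as was RBPJ. With GC and length trends removed LFNG did pass (0.28, edgeR adjusted p = 0.0346). Its log2 fold change was 0.36 without sh60 replicate 1 and 0.02 without sh60 replicate 2. Of 8 genes of the nuclear activation complex 2 fell and 0 rose (0 also at an unadjusted p under 0.05, by DESeq2 and by limma-voom). Beside these stand the same 13.0% lower and 15.8% higher of all tested genes. RBPJ measured 219.9 and 210.3 CPM in sh60, against 213.3 and 204.5 CPM in LacZ (log2 fold change 0.04, adjusted p = 0.744), a value that was -0.02 with GC and length trends removed. MAML3, a coactivator of the Mastermind family, measured 12.5 and 12.02 CPM in sh60, against 16.2 and 18.5 CPM in LacZ (-0.50, adjusted p = 0.00451). EP300, a histone acetyltransferase recruited by many factors, had a log2 fold change of -0.23 (adjusted p = 0.0373). MAML3 was not called without LacZ replicate 3 (adjusted p = 0.105), nor EP300 with library totals only (0.0631), without LacZ replicate 1 (0.340) or without LacZ replicate 3 (0.379).

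Of 12 corepressors that RBPJ recruits in the absence of NOTCH, 0 passed edgeR's test in either direction, 0 had an unadjusted p under 0.05, and DESeq2 and limma-voom also called 0. Over all tested genes 28.8% were called. Among the corepressors the smallest p belonged to CTBP2 and CTBP1, with log2 fold changes of -0.18 and -0.19 (edgeR adjusted p = 0.130 and 0.133). Up to 3 of the 12 were called lower in other fits, with GC and length trends removed and without sh60 replicate 1.

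Of 12 negative regulators 3 were called higher and 2 lower, beside 15.8% and 13.0% of all tested genes, and DESeq2 called 2 higher and 0 lower. Those that rose were DTX4, a ubiquitin ligase of the Deltex family (log2 fold change 0.37, edgeR adjusted p = 0.00797), NEDD4, a ubiquitin ligase (0.40, adjusted p = 0.0216), and NUMBL, a Numb-like adaptor (0.40, adjusted p = 0.0295). DTX1 and DTX2 fell (-0.44 and -0.33, adjusted p = 0.0284 and 0.0365), the second of them named after its value was seen. All 5 calls were lost without LacZ replicate 3, where 0 of the 12 passed in either direction. The calls of DTX1 and DTX2 were also lost without LacZ replicate 1 and without sh60 replicate 1. NRARP, a direct NOTCH target that feeds back on the receptor, was also looked up after the fact. It measured 32.7 and 32.7 CPM in sh60, against 29.5 and 32.8 CPM in LacZ, and did not pass (adjusted p = 0.648).

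The wider HES and HEY family split. Of 9 tested genes 3 rose and 4 fell, and 2 did not pass, while DESeq2 called 2 higher and 2 lower. Over all tested genes edgeR called 15.8% higher and 13.0% lower. HES4, a relative of HES1, measured 2.76 and 4.35 CPM in sh60, against 1.78 and 1.36 CPM in LacZ (log2 fold change 1.17, SE 0.24, edgeR adjusted p = 0.00131). Both sh60 libraries lay above LacZ, with a wide gap between them. BHLHE40, a related repressor that also responds to stress and the clock, measured 96.6 and 104.1 CPM in sh60, against 65.8 and 53.2 CPM in LacZ (0.75, adjusted p = 2.66e-05).

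HES6, a family member that opposes HES1, measured 11.5 and 15.7 CPM in sh60, against 20.3 and 21.5 CPM in LacZ (log2 fold change -0.61, edgeR adjusted p = 0.00222). HES7, the oscillating repressor of the segmentation clock, had 4 and 1 counts in sh60, against 24 and 21 counts in LacZ. It was called lower (adjusted p = 0.000645), was given no adjusted p by DESeq2, and no fold change is given at such counts. HES2, HEY2 and HEYL were named after their values were seen. HEY2 measured 11.5 and 11.3 CPM in sh60, against 16.8 and 16.3 CPM in LacZ (-0.54, adjusted p = 0.00225). HEYL measured 0.352 and 0.309 CPM in sh60, against 0.973 and 0.632 CPM in LacZ (adjusted p = 0.0186), and HES2 measured 1.88 and 2.17 CPM in sh60, against 1.21 and 0.865 CPM in LacZ (adjusted p = 0.0108). Neither HEYL nor HES2 was called by DESeq2 (adjusted p = 0.137 and 0.0654), and each lost its call in 2 of the fits without 1 library. All 3 HEY genes, HEY1 included, were thus called lower in the main fit, beside 13.0% of all tested genes. They were grouped after the values were seen, and only HEY2 kept its call under all 12 alternatives. Of the genes whose windows are printed above HES4 rose, HEY2 fell and HES1 did not pass.

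**Figure D5:**
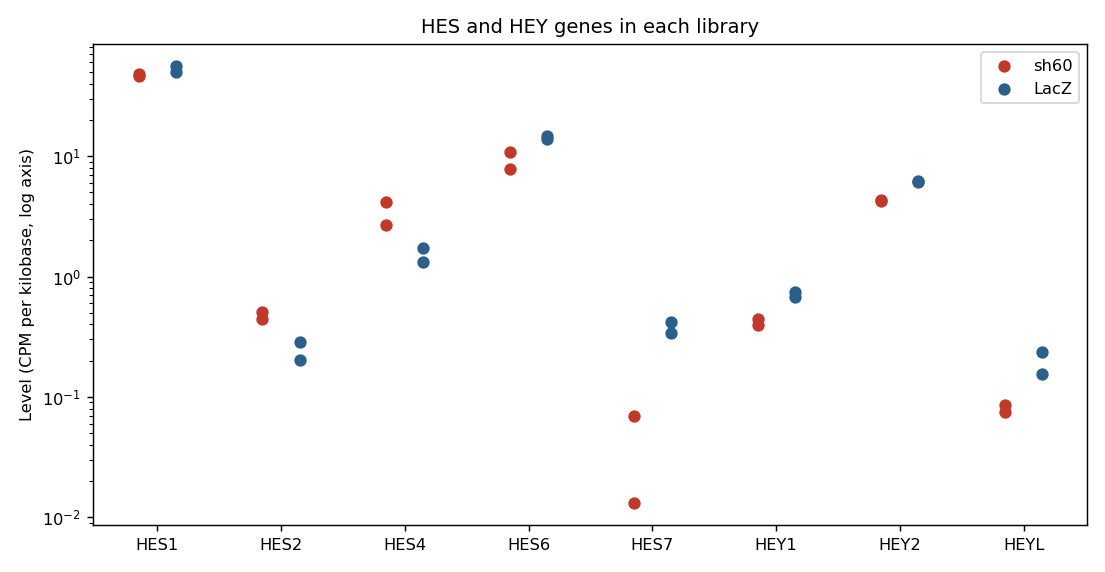
Level of 8 HES and HEY genes in CPM per kilobase (vertical log axis) in each of the 2 sh60 and 2 LacZ libraries. HES1 stands highest in both groups, the 3 HEY genes, HES6 and HES7 sit lower in sh60, and HES2 and HES4 sit higher.

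Among 8 further receptors and non-canonical ligands 2 rose and 2 fell, beside 15.8% and 13.0% of all tested genes. MFAP5, a microfibril protein reported to bind receptor and Jagged1, measured 57.4 and 66.6 CPM in sh60, against 11.4 and 4.26 CPM in LacZ (log2 fold change 2.95, SE 0.24, edgeR adjusted p = 8.93e-08). The LacZ libraries differed widely here, with replicate 1 nearer to sh60, and the log2 fold change was 3.87 without LacZ replicate 1 and 2.45 without LacZ replicate 3. Fibroblast markers were measured beside it. The 8 genes of that list summed to 924.9 and 1089 CPM in sh60, against 541.8 and 445.1 CPM in LacZ. Most of the gap between these sums was COL1A1, with 553.7 and 684 CPM in sh60, against 141.4 and 84.9 CPM in LacZ. Of the 8 genes 3 were called higher, 2 lower (PDGFRA and THY1) and none was at 0 counts. The part of the fibroblast markers in the MFAP5 result was not tested. DNER, a neuronal ligand of NOTCH, measured 6.87 and 7.42 CPM in sh60, against 4.51 and 3.63 CPM in LacZ (0.80, adjusted p = 0.00117). Of 8 neuron markers 5 rose and 0 fell (summed levels 317.9 and 341.3 CPM in sh60, against 229.4 and 213.8 CPM in LacZ). At an unadjusted p under 0.05, by DESeq2 and by limma-voom 0 were lower too. The counts of fibroblast and neuron markers stand beside 15.8% higher and 13.0% lower of all tested genes. The part of the neuron markers in the DNER result was not tested.

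NOTCH4, the receptor of endothelium, measured 0.734 and 1.04 CPM in sh60, against 1.40 and 2.23 CPM in LacZ (log2 fold change -0.98, edgeR adjusted p = 0.0192). Its listed exon length was 44221 bases, against 11825 for NOTCH2. Whether this length spans several copies, whose shared reads would be left out, was not checked, so the level of NOTCH4 is uncertain. The imprinted ligand-like gene DLK1 measured 4.46 and 5.57 CPM in sh60, against 8.001 and 6.59 CPM in LacZ (-0.54, adjusted p = 0.0201). Neither was called by DESeq2 (adjusted p = 0.0763 and 0.0545) or without sh60 replicate 1 (0.106 and 0.104). NOTCH4 also lost its call without LacZ replicate 3 (0.246) and DLK1 without LacZ replicate 1 (0.217). Of 8 endothelial markers 5 were tested, of which 3 were lower and 0 higher in sh60 (0 higher also at an unadjusted p under 0.05, by DESeq2 and by limma-voom; DESeq2 called 1 lower). They summed to 71.6 and 69.3 CPM in sh60, against 77.8 and 67.9 CPM in LacZ, most of it TEK, with EMCN at 0 counts in all libraries. Of all tested genes 13.0% were called lower and 15.8% higher.

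The presomitic mesoderm and segmentation list, in which DLL1 and DLL3 act in the embryo, had 6 of 10 tested genes lower and 1 higher (median log2 fold change -0.78), beside 13.0% and 15.8% of all tested genes. This list was drawn up with a fall of TBX6 in these data already known. MESP2, which sets the somite boundary, measured 3.70 and 4.11 CPM in sh60, against 9.33 and 9.78 CPM in LacZ (-1.28, SE 0.15, edgeR adjusted p = 5.47e-06). MESP1, its neighbour and a factor of early mesoderm, measured 8.19 and 9.10 CPM in sh60, against 19.5 and 18.3 CPM in LacZ (-1.13, adjusted p = 2.52e-06). MSGN1, a factor of presomitic mesoderm, measured 1.61 and 1.46 CPM in sh60, against 4.53 and 4.43 CPM in LacZ (-1.55, adjusted p = 1.33e-05). In these genes, as in DLL3, each sh60 library lay well below each LacZ library. TBX6, a T-box activator of DLL1 in the mouse embryo, had a log2 fold change of -1.87 (adjusted p = 1.07e-07). The others that fell were HES7 and PCDH8 (-0.43, adjusted p = 0.00752), a protocadherin, and the riser was TBX18 (1.34, adjusted p = 3.51e-05), a T-box factor of the anterior somite, the last 2 named after their values were seen. PCDH8 was not called without LacZ replicate 3 (adjusted p = 0.131).

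Proneural factors, which raise Delta-like ligands in neural progenitors, were mostly near silent, with 6 of 12 tested, 1 higher and 1 lower. Those counts lie near the shares of all tested genes, 15.8% higher and 13.0% lower. INSM1, a zinc finger factor of neuroendocrine cells and neural progenitors, measured 1.64 and 1.66 CPM in sh60, against 0.973 and 0.399 CPM in LacZ (log2 fold change 1.19, edgeR adjusted p = 0.0101). It was not called without LacZ replicate 3 (log2 fold change 0.76, adjusted p = 0.118) or without sh60 replicate 2 (adjusted p = 0.0515), and the log2 fold change was 2.04 without LacZ replicate 1. ATOH8, a bHLH factor that is not restricted to neurons, measured 6.52 and 5.81 CPM in sh60, against 15.6 and 16.5 CPM in LacZ (-1.39, adjusted p = 5.47e-07).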

How the data were processed

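Single-end stranded mRNA sequencing of NTERA2 was analysed from raw counts per gene that the authors deposited. The submitters' processing notes name STAR 2.7.6a and the hg19 (GRCh37) build, and reads were counted over exons per gene symbol with featureCounts of Subread 2.0.0 on the reverse strand (setting 2), per the file headers. No option in the headers keeps reads that fit several places or genes, so with the tool's defaults these were left out. No other gene's exons overlap those of a member on the same strand.

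One edgeR model over all 4 libraries (version 4.0.16 in R 4.3.3) gave quasi-likelihood tests with TMM scaling and group as the only term, on 16040 genes kept by filterByExpr. P-values were adjusted by Benjamini-Hochberg over these genes. The script was tested on simulated data. Intervals are at 95%. CPM per kilobase divides CPM by the exon length in the files. The 12 alternatives were edgeR with DESeq2 size factors, with upper-quartile scaling or with library totals, DESeq2 1.42.0, limma-voom (limma 3.58.1), no count filter, 1 CPM in 2 libraries, loess trends on GC content (GENCODE transcript sequences, matched for 94.2% of tested genes) and length removed, and leaving out each library. Of each pathway list up to 4 called genes with the smallest p, or 2 where none passed, were named. One gene that this rule names is not reported here. The members and lists were chosen with earlier results of these data known.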

Additional observations from a re-analysis of the deposited data

How the results depend on the processing

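The 9 tested members kept their direction under all 12 alternatives, and DLL1 and DLL3 also kept their calls. With GC and length trends removed, 4 members were called higher and 4 lower, beside 3125 higher and 3107 lower over all genes. Leaving out 1 library gave 0 to 3 members higher and 2 to 3 lower, 1331 to 2789 genes higher and 956 to 2697 lower over all genes, and 7 to 20 other pathway genes higher and 10 to 17 lower. DESeq2 called 10 other pathway genes lower. The log2 fold change of BEND3 ran from -0.56 to -0.36 over these fits and lost its call without LacZ replicate 3. RBPJ reversed to -0.024 with GC and length trends removed. The cause of these changes was not tested. In a fit without 1 library, the lone library is assumed to vary like the others. No paired analysis was possible because the groups share only replicate number 1. Depth limits DLL4, HES7, HEYL and HEY1, which rest on few counts.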
